A study of Mus musculus with 3 samples.

Results

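The regions described here were open in undivided CBir1 T cells alone. They were found by merging the peaks of 3 libraries on chromosomes 1 to 19 wherever peaks shared 1 bp or more, and by keeping merged regions that held a peak of the undivided library and none of the divided or polyclonal library. Of 55946 merged regions, 3486 met this rule, which is 6.23% of all regions (95% Wilson interval 6.03 to 6.43%). They covered 0.881 Mb, and each held 1 undivided peak.

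Chromatin accessibility was assayed by ATAC-seq, which marks open DNA by where a transposase can cut it and attach adapters. CD4+ T cells from mice transgenic for CBir1, a T cell receptor specific for a commensal flagellin, were isolated from spleen as naive cells, loaded with the division dye CellTrace Violet and transferred into 4 wild-type C57BL/6J mice. The 3 fractions were sorted from the colon-draining mesenteric lymph nodes. The undivided fraction was CBir1 cells that kept the dye, the divided fraction was CBir1 cells that had diluted it, and the polyclonal fraction was the recipients' own CD4+ T cells. All 3 fractions came from mice given 2% dextran sulfate sodium, an agent that injures the colon lining, in drinking water for 7 days. FTY720 (1 mg/kg), which stops lymphocytes from leaving nodes, was given to all of them on day 7, day 10 and day 13, and the nodes were taken on day 14. No fraction came from mice without dextran sulfate sodium or FTY720. Per the labels, cells of 2 mice were pooled and pools were made in duplicate. One peak list per fraction was analysed here, so each fraction is 1 library, differences between fractions carry no replicate check, and intervals cover counting error only.

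Open regions away from genes are often enhancers, and those at gene starts are promoters. A T cell that has not met its antigen keeps a quiescent chromatin state, and stimulation through the antigen receptor opens and closes regulatory regions. The T cell receptor alpha and delta genes share a locus: the delta segments lie between the V segments and the J segments of the alpha chain, so that joining an alpha V segment to an alpha J segment removes the delta genes from that chromosome. Alpha-beta T cells, the class that includes CD4+ helper cells, and gamma-delta T cells use different receptor chains.

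Promoter sequences under undivided-alone regions are shown first, since the promoter is the one place where sequence could be read. RefSeq promoter windows, from 250 bases before to 50 bases after a gene's start, overlapped 77 of the 3486 undivided-alone regions, 82 windows and 79 genes (61 protein-coding and 18 lncRNA genes). The 4 stretches below are the parts of such windows that lay before the gene's start, outside its annotated span, and under the undivided peak. They were chosen from the 13 stretches of this kind with at least 100 bases, after their values were seen, as examples that hold different motifs. They are given 5′ to 3′ on the gene's strand, from RefSeq, build GRCm38.p6 (the assembly of mm10). Eng, an endothelial co-receptor for TGF-beta, is at chr2:32646360-32646594 on the plus strand. Flt3, the receptor tyrosine kinase of early blood progenitors, is at chr5:147400490-147400739 on the minus strand. Mt2, a metal-binding metallothionein, is at chr8:94172385-94172617 on the plus strand, and Hspg2, which encodes the matrix proteoglycan perlecan, is at chr4:137468553-137468683 on the plus strand. Capitals mark the GC box GGGCGG, the AP-1 motif TGANTCA, the TCF/LEF motif CTTTGA and the E-box forms CANNTG that a script found on either strand.
Eng: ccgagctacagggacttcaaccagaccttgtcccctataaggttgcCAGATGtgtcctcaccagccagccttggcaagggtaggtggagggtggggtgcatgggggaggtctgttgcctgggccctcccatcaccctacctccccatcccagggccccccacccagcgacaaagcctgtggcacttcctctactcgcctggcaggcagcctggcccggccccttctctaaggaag
Flt3: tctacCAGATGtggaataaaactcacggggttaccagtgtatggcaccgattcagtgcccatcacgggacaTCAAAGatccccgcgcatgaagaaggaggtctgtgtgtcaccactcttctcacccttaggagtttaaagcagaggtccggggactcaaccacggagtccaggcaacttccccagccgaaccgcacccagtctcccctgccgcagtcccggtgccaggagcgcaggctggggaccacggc
Mt2: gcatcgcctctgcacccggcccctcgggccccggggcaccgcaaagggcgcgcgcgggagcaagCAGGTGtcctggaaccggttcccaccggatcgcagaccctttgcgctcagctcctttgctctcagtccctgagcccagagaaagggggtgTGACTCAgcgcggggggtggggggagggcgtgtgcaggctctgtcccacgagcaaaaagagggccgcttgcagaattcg
Hspg2: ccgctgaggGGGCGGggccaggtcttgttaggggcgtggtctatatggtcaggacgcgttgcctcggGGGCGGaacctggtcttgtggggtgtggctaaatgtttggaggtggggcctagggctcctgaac

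Eng and Flt3 carried an E-box each, Flt3 also carried a TCF/LEF match, Mt2 carried an E-box and an AP-1 match, and Hspg2 carried 2 GC boxes. The peak at Eng had a −log10 q of 8.85, that at Flt3 5.55, that at Hspg2 4.49 and that at Mt2 3.49. Here q is the p-value of the peak caller after correction for multiple testing, so a higher −log10 q is a stronger peak, and the lowest in the undivided list was 1.301. The Eng region was the single region of any library assigned to that gene, whereas Flt3 had 8 regions, of which 1 was undivided-alone.

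The region of Cav1, which encodes the membrane coat protein caveolin, had the second highest −log10 q at a protein-coding promoter. This peak (chr6:17307405-17307674) had 15 fragments at its summit and a −log10 q of 12.7, and the nearest peak of another fraction was 24889 bp away. This summit pileup is the number of fragments stacked at the highest point of a peak. At Anxa1, the gene of annexin A1, the undivided peak reached 11 fragments (−log10 q 7.78). At Tfdp2, which encodes a dimer partner of E2F factors, it also reached 11 (−log10 q 7.78).

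Promoters were a small share of the undivided-alone regions. The share that overlapped a promoter window was 2.21% (1.77 to 2.75%) of undivided-alone regions, against 2.90% of divided-alone, 2.47% of polyclonal-alone and 28.1% of regions open in all 3 fractions. Among the 82 windows under undivided-alone regions, 53.7% (42.9 to 64.0%) held a GC box, against 66.9% of the 11985 windows under regions of all 3 fractions and 36.0% of all 31396 promoter windows. The ETS motif CCGGAAG was in 6.10% (2.63 to 13.5%), against 19.4% under regions of all 3 fractions and 9.004% of all windows. For both motifs the interval in the undivided-alone windows lay below the share in windows open in every fraction. The other single-library sets had similar shares, with a GC box in 50.6% of divided-alone and 46.2% of polyclonal-alone windows and the ETS motif in 5.36% and 6.84%. None of these differences was tested. Motifs were counted over each whole window, although a region could cover as little as 2 bases of it, as at Ptgs2os2. Regions of all 3 fractions were also wider, with a median of 781 bp against 223 bp. The sets may therefore differ in how much of a window was open.

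The TCF/LEF motif was in 18.3% (11.4 to 28.0%) of undivided-alone promoter windows, against 11.2% under regions of all 3 fractions and 15.9% of all windows, with 16.5% in divided-alone and 15.4% in polyclonal-alone windows. AP-1 was in 11.0% (5.88 to 19.6%), against 4.44% under regions of all 3 fractions and 7.84% of all windows, with 8.81% in divided-alone and 4.27% in polyclonal-alone windows. AP-1 was in 0 of the 25 windows whose undivided peak had a −log10 q of at least 5. The RUNX motif TGTGGT was in 7.32% (3.40 to 15.1%), against 11.9% under regions of all 3 fractions and 16.7% of all windows. CCAAT was in 26.8% (18.4 to 37.3%), against 37.5% and 37.3% in the same order of sets. E-boxes were in 64.6% (53.8 to 74.1%) of the undivided-alone windows, against 61.9% and 72.2%. Both strands were searched over the whole window, CCAAT matches include the longer ATTGGCT form, and a match is only the presence of these letters. Of the remaining motifs, TATAAA was in 4 of the 82 windows (4.88%, 1.91 to 11.9%), against 5.87% and 13.6% in the same order. ATTGGCT (NFY) was in 1 (1.22%, 0.216 to 6.59%), against 11.4% and 7.76%. It was in 5.75% of divided-alone and 12.8% of polyclonal-alone windows. TGTTTAC (forkhead) was in 2 (2.44%), against 2.44% and 3.71%, and CCACNAGG (CTCF core) in 5 (6.10%), against 5.79% and 5.05%. TGACGTCA (CRE) was in 1 (1.22%), against 3.43% and 1.83%.

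The undivided-alone regions were weak and narrow next to regions shared by every fraction, and close in strength to those found in another single library. The values in this paragraph come from the peaks that chose the regions, so they are a description. Their median pileup was 9 fragments (interquartile range 7 to 12, lowest 5, highest 302), against 11 in divided-alone regions, 8 in polyclonal-alone regions and 41, in the undivided library, in regions of all 3 fractions. The median fold over local background, a linear ratio, was 4.43 in undivided-alone regions, against 4.29 in divided-alone and 4.29 in polyclonal-alone regions and 9.96 in regions of all 3. Median width was 223 bp in undivided-alone regions, against 251, 224 and 781 bp in the same sets. The median −log10 q was 3.64, against 4.74, 3.43 and 27.4.

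Few of the undivided-alone regions were strong. In the undivided library 1170 regions, 33.6% of the undivided-alone set, had a −log10 q of at least 5, which is 2.09% of all regions, and 252 had at least 10. At the edge of the rule, 26 undivided-alone regions had a −log10 q under 1.5 (lowest 1.31) and 387, or 11.1%, under 2. Just outside it, 4 regions with an undivided peak were left out by a peak of another fraction whose −log10 q was under 1.5 (lowest 1.40), and 56 by one under 2.

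**Figure D1:**
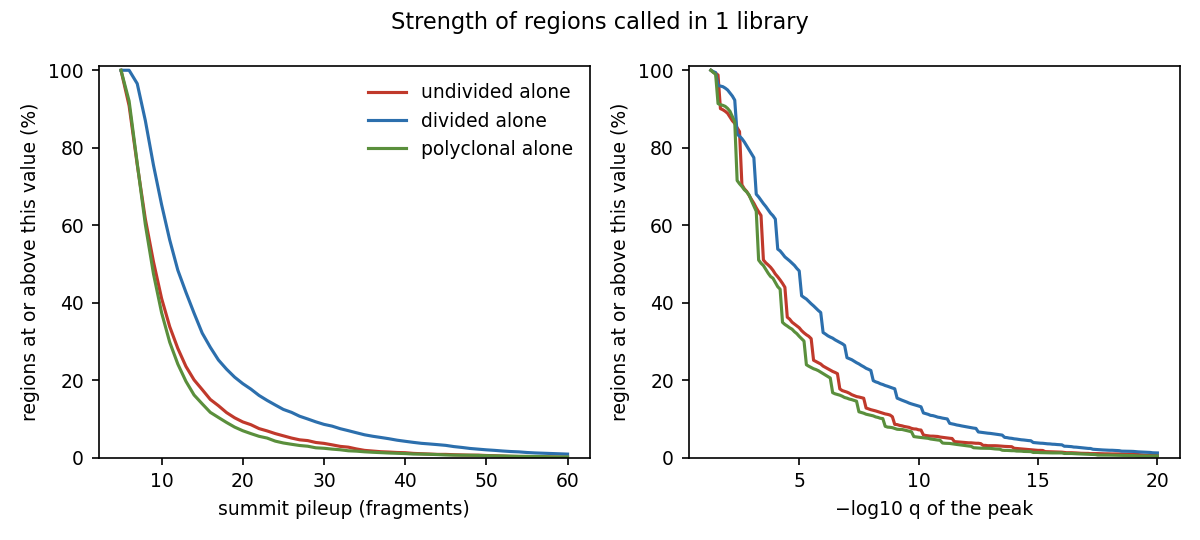
Share of regions (y axis, percent) whose peak reached at least the value on the x axis, for summit pileup in fragments (left) and −log10 q (right), in regions called in undivided (red), divided (blue) or polyclonal (green) cells alone. For pileup the undivided-alone curve stays below the divided-alone curve; for −log10 q the curves cross at low values. Median pileups were 9 fragments in undivided-alone, 11 in divided-alone and 8 in polyclonal-alone regions.

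Depth differed between the libraries. No read totals were used here, so depth was judged from the peaks. Pileups in regions of all 3 fractions were 1.21 times as high in divided as in undivided cells at the median, and the lowest local background was 1.496 times as high. The polyclonal library stood at 1.01 and 1.07 times the undivided one. In the divided library background was thus raised more than pileup in shared regions. Whether depth had a part in the undivided-alone calls was not tested. For each undivided-alone region the highest pileup that would have stayed uncalled elsewhere was worked out from the lowest deposited p of the other list and the local background scaled by depth. Its median was 5 fragments in the divided and 4 in the polyclonal library. Scaled by the background ratio, 3465 of the 3486 regions would have passed in both other libraries had they been as open there, and scaled by the shared regions 3484 would have. The lowest −log10 p was 3.27 in divided and 3.31 in polyclonal cells, against 3.33 in undivided cells. Most regions would therefore pass again by construction, and sampling of fragments was not modelled.

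The undivided pileup, scaled for depth, over that highest uncalled pileup gives a least ratio between undivided cells and the other fraction, counting error aside. This least ratio was at least 2 against both other fractions in 1250 undivided-alone regions (35.9%) with the background scale and in 989 (28.4%) with the shared-region scale. It was at least 3 in 264 and 189 regions. In the rest the least ratio was below 2. These ratios rest on the undivided peaks that chose the regions, since pileups of the other fractions there were not read. They are a description, and a 2-fold difference was not tested in any region. The least ratio was at least 1.5 in 2727 undivided-alone regions with the background scale and in 2200 with the shared-region scale. Least ratios below use the background scale. For divided cells this scale is the larger (1.496 against 1.21), so the ratios may be lower with the shared-region scale.

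A dense group of undivided-alone regions lay in the T cell receptor delta locus. Of the 19 regions that touched Tcrd (chr14:53946073-54159198), 11 were open in undivided cells alone, which is 57.9% (36.3 to 76.9%), against 6.23% of all regions. Undivided cells had a peak in 17 of the 19 regions, against 6 in divided and 4 in polyclonal cells. Among the other 8 regions, 2 were divided-alone, 2 were shared by undivided and divided cells, 2 by undivided and polyclonal cells, and 2 by all fractions. The locus was chosen for description after its values were seen.

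Within Tcrd the undivided-alone peaks ran from 10 to 27 fragments with a median of 17, above the median of 9 for all undivided-alone regions. The region at the V segment pseudogene Trdv3 (chr14:54000496-54000813) reached 20 fragments and a −log10 q of 19.4. A pair of regions in the gap before Trdv4, chr14:54042018-54042521 and chr14:54052786-54053284, reached 27 fragments each (−log10 q 21.8 and 19.8). Their least ratios were 5.05 and 4.49 against divided and 4.82 and 4.13 against polyclonal cells.

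The D, J and constant segments of the delta chain had undivided-alone regions as well. The region nearest Trdd1, a diversity segment, lay 2078 bp from it and reached 17 fragments (−log10 q 14.4). Both regions nearest the joining segment Trdj2 were lower, at 10 and 11 fragments. The region 406 bp from the constant region Trdc (chr14:54146514-54146777) reached 18 fragments (−log10 q 7.04).

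Both Tcrd regions open in every fraction were also highest in undivided cells. At chr14:53960899-53961826 the pileup was 47 in undivided, 17 in divided and 14 in polyclonal cells. At chr14:53991321-53991674 it was 21 in undivided, 13 in divided and 10 in polyclonal cells. These 2 regions are not part of the undivided-alone set and their pileups are not scaled for depth, which was higher in the divided library.

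Outside Tcrd, 17 of the 162 regions of the alpha locus were undivided-alone (10.5%, 6.66 to 16.2%). Across Tcra as a whole (chr14:52427967-54224198), 28 of 181 regions were open in undivided cells alone (15.5%, 10.9 to 21.4%), against 20 in divided and 17 in polyclonal cells alone. Among them, 14 lay before Tcrd among the V segments, 11 touched Tcrd, and 3 lay past it among the J segments. Of the 28, 16 were within 500 bp of an annotated segment, 12 of them V segments or V pseudogenes.

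The strongest regions in the locus by −log10 q included those at 3 V segments. Trav14-3 reached 38 fragments (−log10 q 21.5), Trav14-2 (chr14:53640548-53640700) reached 36 (−log10 q 24.8) and Trav12-1 (chr14:53537875-53538189) reached 29 (−log10 q 23.0). Their least ratios were 3.39, 4.29 and 4.44 against polyclonal cells, and 3.79, 4.90 and 5.42 against divided cells. Many Trav segments are near copies of each other, so the counts at a single V segment are uncertain where reads fit several copies. In these bulk libraries the number of cells that still carry a stretch of DNA, its accessibility in each cell and the mix of cell types cannot be told apart.

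**Figure D2:**
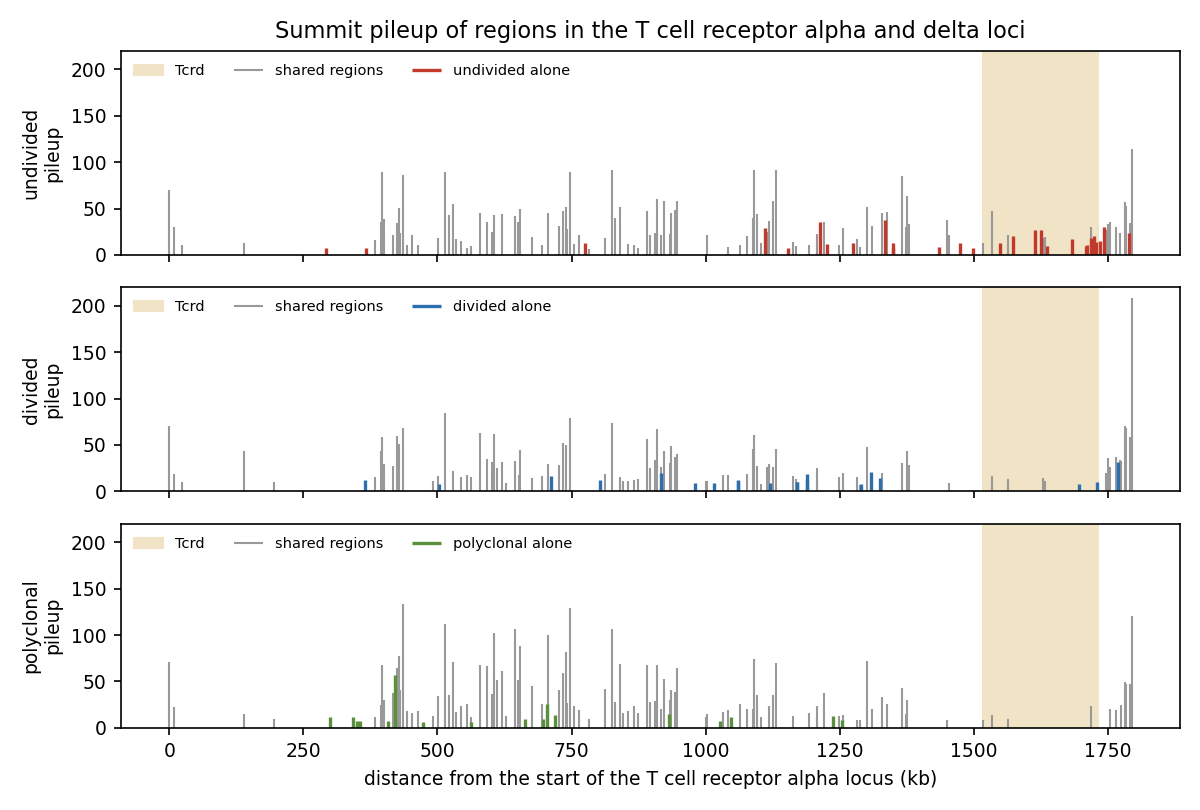
Summit pileup in fragments (y axis) of each region in the T cell receptor alpha and delta loci against distance from the locus start in kb (x axis), for undivided (top), divided (middle) and polyclonal (bottom) cells, each library with its own pileup, not scaled for depth. Coloured lines are regions called in that library alone, grey lines regions shared with another library, and the shaded band is Tcrd, where the undivided panel has 17 regions, against 6 in the divided and 4 in the polyclonal panel.

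Other antigen receptor loci held fewer of these regions than the alpha and delta loci, but not always a lower share. At the gamma and kappa loci, with 7 and 8 regions, it was above the share among all regions. In the T cell receptor beta locus 3 of 44 regions were undivided-alone (6.82%, 2.35 to 18.2%), close to the share among all regions. In the gamma locus it was 2 of 7 (28.6%, 8.22 to 64.1%), at 9 fragments each. One lay near Trgv3 and one near Trgc2, and undivided cells had a peak in all 7 regions, against 4 in divided and 4 in polyclonal cells. The region chr13:19190053-19191046, called in undivided and divided cells, had 41 fragments in undivided and 19 in divided cells. In the immunoglobulin loci, which rearrange in B cells, 7 of 113 regions at the heavy chain (6.19%) and 3 of 8 at kappa (37.5%, 13.7 to 69.4%) were undivided-alone. The 3 at kappa had 16 to 20 fragments and a median −log10 q of 12.3, against 5 to 17 fragments and 2.54 at the heavy chain. Undivided cells had a peak in 7 of the 8 kappa regions, against 4 in divided and 4 in polyclonal cells.

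Sox13, a transcription factor gene known from gamma-delta T cells, had the highest share of undivided-alone regions of any gene with at least 6 regions. Regions were assigned to the nearest protein-coding gene within 100 kb. Of the 8 regions assigned to Sox13, 6 were undivided-alone, 1 was shared by all fractions and 1 by divided and polyclonal cells. The 6 peaks had 7, 8, 8, 10, 10 and 11 fragments. A pair of them, chr1:133423456-133423743 and chr1:133423970-133424469, lay at the end of the gene span that holds the gene's start, on the minus strand. The second of the pair covered the whole promoter window. Inside the gene lay 3 more, and the last (chr1:133493065-133493632) lay 68606 bp away, between genes. The region of all fractions (chr1:133385398-133386138) had 37 fragments in undivided, 30 in divided and 52 in polyclonal cells, so Sox13 was not closed throughout in the other fractions. Of 2639 genes with at least 6 regions, Pax7, a muscle and neural crest transcription factor gene, was the only other with at least 50% undivided-alone (4 of 7).

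A list of 12 genes that mark gamma-delta T cells or their subsets was written after its values, and those of Tcrd, were seen. Of the 70 regions assigned to the list, 14 were undivided-alone (20%, 12.3 to 30.8%), against 6.23% of all regions. Sox13, whose values led to the list, supplied 6 of the 14, and without it 8 of 62 were undivided-alone (12.9%, 6.69 to 23.4%). The other genes were also chosen with these data known, so both shares are a description and not a test. The scavenger receptor family gene 5830411N06Rik had a single region, an undivided-alone peak of 18 fragments (−log10 q 16.6). Etv5, an ETS factor gene, had 2 of 4. Zbtb16, Blk, Il23r and Id3 were among those with 1 each, and Cd163l1, Maf, Il1r1 and Ccr6 had 0.

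Of the 12 genes, 7 showed a gene-end peak in undivided, 8 in divided and 6 in polyclonal cells. Several, among them Maf and Il23r, are also used by Th17 cells, and Blk is also a B cell gene. Whether gamma-delta cells in the sort had a part in these values was not tested.

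Markers of T cells and of other cell types were read at gene ends as a check on the labels. Gene-end peaks were present in every library at the whole list of 14 T cell identity genes, such as Lck, Cd3e and Bcl11b, most of which are shared by all T cells. Of 10 B cell markers, 1 had such a peak in undivided cells, 4 in divided cells and 2 in polyclonal cells. Among 10 myeloid markers it was 5, 4 and 5, and of 6 CD8 T cell markers 4 in each library. At B cell markers 1 of 18 regions was undivided-alone (5.56%) and at myeloid markers 2 of 31 (6.45%). At CD8 T cell markers it was 3 of 46 (6.52%), so all were near the 6.23% of all regions. The strongest of these undivided-alone regions was at the Fc receptor gene Fcgr3, with 30 fragments (−log10 q 15.2).

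Genes switched on by receptor stimulation had the lowest undivided-alone share of the lists with at least 1 such region. One of 136 regions of this list, which holds genes such as Nr4a1, was undivided-alone (0.735%, 0.130 to 4.05%), against 6.23% of all regions. With an overlap of at least 50% of the narrower peak required, it was 5 of 143 (3.50%, 1.503 to 7.92%), against 7.08% of all regions, so the interval then held the background. Divided-alone regions were 17 (12.5%), against 14.3% of all regions. The single region lay 33428 bp from Prdm1, which encodes the repressor Blimp-1, and had 8 fragments (−log10 q 4.49). None of 33 Th2 regions, which allows up to 9.09%, and none of 37 cytotoxic regions, which allows up to 8.11%, was undivided-alone. No other list written with these had an interval that left out 6.23%.

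The share at naive and quiescence genes had an interval that held the 6.23% of all regions. Of their 401 regions 22 were undivided-alone (5.49%, 3.65 to 8.17%), at 10 of 16 genes, and 52 (13.0%) were divided-alone, against 14.3% of all regions. Bach2, which encodes a repressor that keeps T cells quiescent, had 5 undivided-alone regions of 60, with 8 to 15 fragments. Foxo1, a forkhead factor gene of naive T cell survival and homing, had 3, of which the strongest (chr3:52390356-52391112) reached 15 fragments and a −log10 q of 9.65. Named after its values were seen, a region inside Foxp1, a quiescence factor gene, reached 23 fragments (−log10 q 16.6).

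Helper lineage lists had shares from 0% to 5.13%, each with an interval that held the 6.23% of all regions. Of 85 Th1 regions 4 were undivided-alone, among them 1 nearest Eomes, a T-box factor gene, with 24 fragments and 1 nearest Il18r1, an IL-18 receptor gene, with 7. Of 91 Th17 regions 3 were (3.30%, 1.13 to 9.25%), among them 1 in Il23r, an IL-23 receptor gene, with 9 fragments. Of the same 91, 23 (25.3%) were divided-alone, against 14.3% of all regions. Of 106 Treg regions 4 were, with 26 fragments nearest Ctla4, an inhibitory receptor gene (−log10 q 10.1), and 13 in Entpd1, the gene of the ectonucleotidase CD39. Of 117 Tfh regions 6 were, 3 of them in Tox, an HMG-box factor gene, with 12, 6 and 11 fragments, and 1 nearest Icos, a costimulatory receptor gene, with 15 (−log10 q 8.88).

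Signalling, survival and homing lists had shares from 2.11% to 5.36%, each with an interval that held 6.23%. Cytokine receptor and STAT genes had 9 of 168 (5.36%), with 2 at Socs3, a feedback inhibitor of cytokine signalling (10 and 24 fragments), and 2 at Tgfbr2, a TGF-beta receptor gene (35 and 21 fragments). Survival genes had 4 of 86 (4.65%), all at Bcl2 and Pim1. Cell cycle genes had 3 of 74 (4.05%), among them 1 in Ccnd3, the gene of cyclin D3 (10 fragments), and 1 in Cdk6 (7 fragments). Inhibitory receptor and anergy genes had 2 of 95 (2.11%), with 17 fragments in Nt5e, the gene of the ectonucleotidase CD73 (−log10 q 10.8), and 10 in Dgka, a diacylglycerol kinase gene. Both undivided-alone regions of the migration and gut homing list, of 67 (2.99%), were in the gut homing receptor gene Ccr9, at 17 and 13 fragments. T cell identity genes had 8 of 160 (5%), of which the strongest was nearest Cd28, the costimulatory receptor gene, with 14 fragments (−log10 q 11.4), and 2 of 24 and 30 fragments lay inside Bcl11b.

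**Figure D3:**
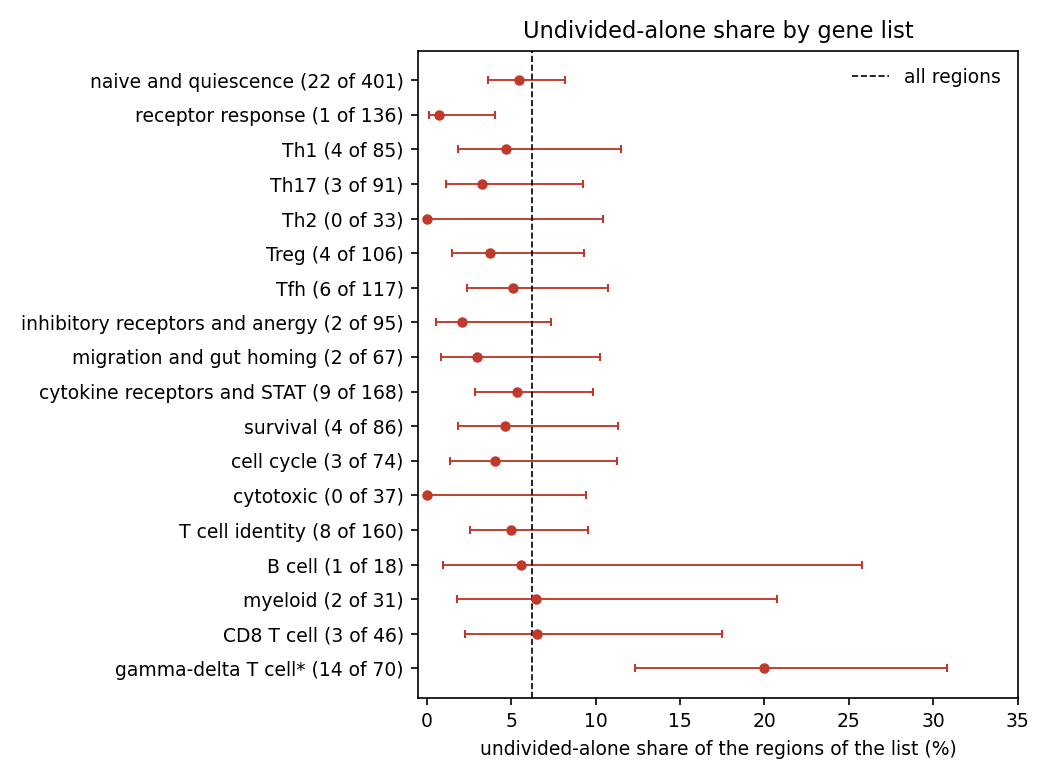
Undivided-alone share (x axis, percent, with Wilson 95% intervals) of the regions assigned to each gene list, with the number of undivided-alone regions of all regions in brackets, and the 6.23% share of all regions as a dashed line. The receptor response list lies below the line at 0.735% and the gamma-delta T cell list, marked with an asterisk because it was written after its values were seen, above it at 20% (12.9% without Sox13).

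The undivided-alone regions were spread thinly over genes. Of 14440 protein-coding genes with a region of any library, 2480 (17.2%) had at least 1 undivided-alone region. Of these genes 1990 had 1, 361 had 2, 88 had 3 and 41 had 4 or more. Divided-alone regions were also present at 1182 of the 2480 genes (47.7%), so a gene could have both kinds.

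Among the genes with the most, Dock10, a guanine nucleotide exchange factor gene of lymphocytes, had 8 undivided-alone regions of 35, with 9 divided-alone. Prkcq, which encodes the protein kinase C theta of the antigen receptor pathway, had 7 of 42. Dad1, the gene of an oligosaccharyltransferase subunit next to the alpha locus, also had 8 of 28. All 8 are regions of the Tcra locus already counted above, and none lay inside Dad1 or at its ends.

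Among genes with 6, Prex1, a Rac exchange factor gene, had 6 of 34, Arid1b, a chromatin remodelling subunit gene, 6 of 46, and Zswim6 6 of 27. Chl1, a cell adhesion gene, had 6 of 19 and Sipa1l1, a Rap GTPase-activating gene, 6 of 25. Plcl2, a phospholipase C-like gene, had 5 of 23, with up to 46 fragments. Sipa1l1, Plcl2 and Sox13 had 0 divided-alone regions.

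**Figure D4:**
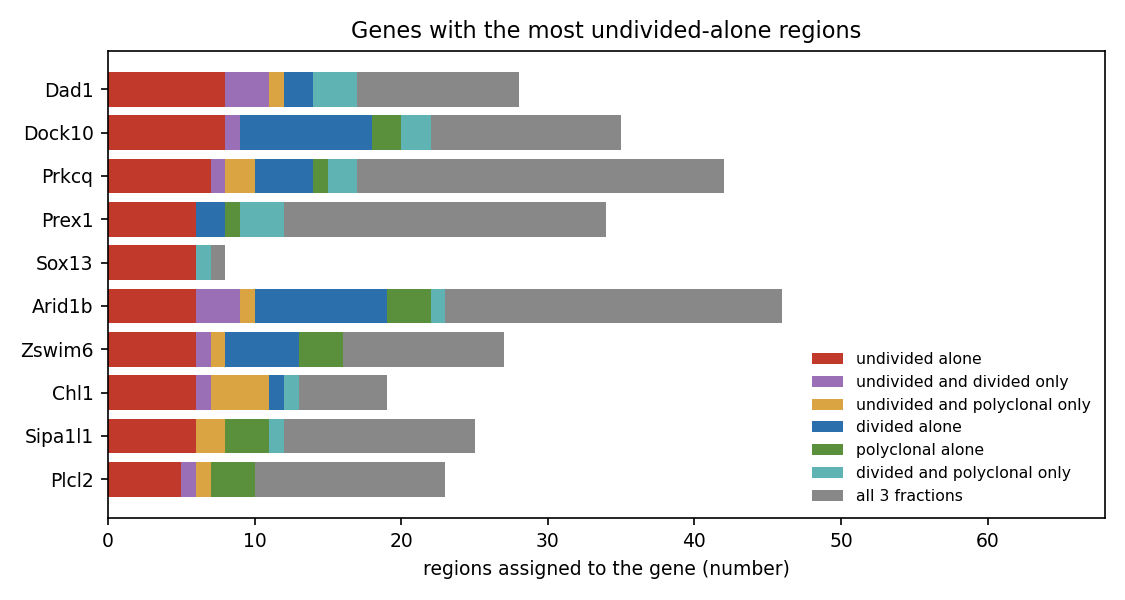
Number of regions (x axis) assigned to each of the 10 genes with the most undivided-alone regions, split by the fractions in which they were called. Undivided-alone regions (red) make up 6 of 8 at Sox13 and 13.0% to 31.6% of the regions at the other 9 genes.

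The strongest regions included several far from any gene. The highest by far, chr5:151734391-151734688, reached 302 fragments over a background of 7.24 (−log10 q 359), 83183 bp from Rfc3, a replication factor gene, with no RefSeq feature within 2 kb. A second, chr8:129301061-129301212, reached 132 fragments (−log10 q 153), 14492 bp from the predicted gene Gm32856. Another, chr10:29970960-29971196, reached 53 (−log10 q 63.0) with no gene within 100 kb. Least ratios were 20.5 against divided and 19.04 against polyclonal cells at the first, and 15.2 and 14.1 at the second. The second was 152 bp wide, and the narrowest peak in the undivided list was 150 bp. No genome sequence was used, so whether repeated sequence had a part in these high counts was not tested.

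Genes with copies or large families lay at some of the others in the top 15. Vmn2r97 (42 fragments) belongs to a large family of vomeronasal receptor genes, and Tgtp1 (50 fragments), an interferon-induced GTPase gene, has a near copy. The region assigned to BC107364, 25 fragments and a −log10 q of 26.6, lay at the small nuclear RNA gene Rnu1b2, one of several U1 copies. Counts at such genes are uncertain where reads fit several copies.

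The remaining members of the top 15 included regions inside single genes. Tmc6, a transmembrane channel-like gene, had 87 fragments over a high background of 20.3. Maml2, a Notch coactivator gene, had 49, Actn1, which encodes alpha-actinin, had 30, Ppp2r2c, a phosphatase subunit gene, had 27 and Clstn1, a calsyntenin gene, had 22. Between genes, Tra2a, a splicing factor gene, was nearest to a region of 31 fragments, and Sh3tc2 to one of 25. Trav14-2 and Trav12-1, given above, complete the 15.

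Gene ends held weaker regions than these. The strongest was at Apod, the gene of apolipoprotein D (chr16:31297089-31297584, 20 fragments, −log10 q 19.4), where the nearest peak of another fraction was 9960 bp away. B4galnt2, a glycosyltransferase gene, followed with 23 fragments (−log10 q 15.7), and then Rpl19, a ribosomal protein gene, with 28 (−log10 q 14.0). The region shared by Raph1 and Abi2, 2 cytoskeletal regulator genes, had 15 fragments (−log10 q 12.5).

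Others in the first 10 had −log10 q values from 10.3 to 11.4. They were Csrnp1, Ccdc153, Tdrd3, Puf60 (a splicing factor gene), Smurf2 (a ubiquitin ligase gene of TGF-beta signalling) and Kcnn4 (a calcium-activated potassium channel gene of T cells). At Csrnp1 and Ccdc153 a peak of another fraction lay 178 and 249 bp away. Those regions neighbour a site that was open elsewhere, unlike the regions at Apod, Raph1 and Smurf2 (26693 bp for Smurf2).

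By position, undivided-alone regions had a larger share between genes than regions of the other single libraries, with an interval that only just cleared that of polyclonal-alone regions. Between genes lay 41.6% (39.997 to 43.3%) of undivided-alone regions, against 37.8% (36.7 to 38.9%) of divided-alone, 38.5% (37.0 to 39.97%) of polyclonal-alone and 29.01% of regions of all 3 fractions. Inside genes lay 49.3% (47.7 to 51.0%), against 53.4% (52.3 to 54.5%), 53.2% (51.7 to 54.7%) and 37.9% in the same sets. Within 1 kb of a gene end lay 9.06% (8.16 to 10.1%), against 8.78%, 8.33% and 33.1%. The share at gene ends did not separate the 3 single-library sets, while that inside genes was lower in the undivided-alone set. Regions called in undivided and polyclonal cells only had similar shares, 41.1% (39.1 to 43.2%) between genes and 50.9% inside them. For undivided and divided cells only these were 39.6% (37.6 to 41.7%) and 49.4%, and for divided and polyclonal cells only 38.4% and 51.1%. Regions of the Tcra locus, 28 of them undivided-alone, count as between genes here, and the shares without that locus were not worked out.

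Regions with no protein-coding gene within 100 kb numbered 311 in the undivided-alone set, or 8.92% (8.02 to 9.91%). The share was 6.02% (5.52 to 6.56%) in divided-alone and 6.63% (5.92 to 7.43%) in polyclonal-alone regions. It was 7.96% (6.90 to 9.15%) in regions of undivided and polyclonal cells only and 5.75% in those of undivided and divided cells only. Of the 311, 20 lay in the Tcra locus, which has no protein-coding gene entries of its own here, and without that locus the share was 8.42%.

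**Figure D5:**
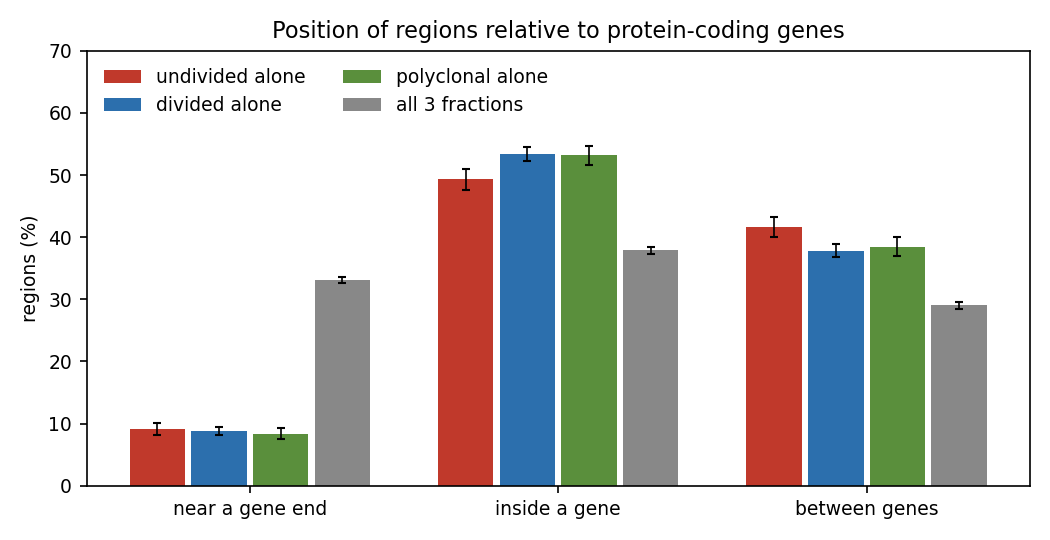
Share of regions (y axis, percent, with Wilson 95% intervals) within 1 kb of a gene end, inside a protein-coding gene or between genes, for regions open in undivided, divided or polyclonal cells alone and in all 3 fractions. Undivided-alone regions lie between genes in 41.6% of cases, against 37.8% in divided-alone and 38.5% in polyclonal-alone regions.

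Many undivided-alone regions had an open neighbour in another fraction. The median distance to the nearest peak of another fraction was 4664 bp for undivided-alone regions, against 5800 bp for divided-alone and 5343 bp for polyclonal-alone regions. Within 500 bp lay 563 undivided-alone regions, or 16.2% (14.97 to 17.4%), against 11.1% (10.4 to 11.8%) and 14.5% (13.5 to 15.6%) in the same order. The 563 regions had a median pileup of 9 and a median background of 1.21 fragments, while the 2923 farther regions had 9 and 0.808. Whether such close regions are edges of a shared site was not tested.

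No chromosome stood far apart. The undivided-alone share ran from 5.44% (4.73 to 6.24%) of the regions on chromosome 7 to 7.11% (6.17 to 8.18%) on chromosome 13, both with intervals that reached 6.23%. Of the undivided-alone regions, 10 lay over small RNA genes: 3 copies of the 5S ribosomal RNA gene on chromosome 8 with 58, 67 and 65 fragments, 3 transfer RNA genes with 5 to 10, the microRNA genes Mir5135 (17 fragments) and Mir3081 (6), Rnu1b2 and the small nucleolar RNA gene Gm26288 (7). The 5S copies are near identical, so their counts are uncertain.

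Set against 1 fraction at a time, undivided cells had more regions. A peak in undivided and none in divided cells was found in 5711 regions (10.2% of all), and a peak in undivided and none in polyclonal cells in 5693 (10.2%). The 3486 undivided-alone regions are those in both sets. For comparison, 7992 regions (14.3%) were open in divided cells alone and 4176 (7.46%) in polyclonal cells alone.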

How the data were processed

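ATAC-seq was measured in 3 fractions, 1 library each. Per the submitters' processing notes, the tools were MACS2 2.1.0, Bowtie2 2.3.2, SAMtools, Picard, Trimmomatic 0.33, cutadapt 1.12 and bcl2fastq 2.17, with build mm10. Not given in the sources used here were read totals, the transposase read shift (which moves peak edges by a few bases) and how duplicate pools entered each list. Deposited peak files hold positions, a whole-number score, the fold enrichment (a linear ratio to local background), −log10 p-values and −log10 q-values. These are the authors' own values per peak and were used to describe, rank and filter within a list. The deposited summit lists repeat positions and −log10 q-values. The lowest −log10 q was 1.30 in undivided, 1.31 in divided and 1.30 in polyclonal cells, near a q of 0.05.

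Pileup and background were recovered from the fold, (pileup + 1)/(background + 1), and the −log10 p under a Poisson model, with a whole-number pileup (tolerance 0.001) for over 99.9% of peaks, checked on simulated data. Peaks sharing 1 bp or more were merged (Python 3.11.15, pandas 2.3.3, scipy 1.17.1). Genes and promoters came from RefSeq tables of GRCm38.p6, with 21900 protein-coding gene spans that do not tell exons from introns. No genome sequence was used, so motifs were searched in promoter windows only.

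The members and gene lists were chosen with earlier results of these data known, and the gamma-delta list after its values were seen. Genes named were the 15 members of highest −log10 q, the 10 such members at gene ends, the 10 genes with the most members (at least 4), and in each T cell list the 2 genes with the most members. Some genes that the rule selects are not reported here. Others are said to be chosen after their values were seen, or stand as promoter, receptor locus or marker examples chosen in the same way. Alternatives changed the overlap, the join distance (500 bp), the −log10 q minimum (2, 5 and 10), the gene windows (5 kb for gene ends, 20 kb for assignment) and the depth scale.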

Additional observations from a re-analysis of the deposited data

Results flagged for a closer look

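Chromosome X lay outside the rule, which took chromosomes 1 to 19. There, 134 of 1475 merged regions were open in undivided cells alone (9.08%, Wilson 95% interval 7.72 to 10.7%), against 6.23% on chromosomes 1 to 19. This count comes from a chromosome that no comparison above used, and the divided-alone and polyclonal-alone shares there are not given. On chromosome Y, 1 of 36 regions was open in undivided cells alone. The sex of donors and recipients was not used here, and its part in the value was not tested.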

How the results depend on the processing

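No paired analysis was possible because each fraction had 1 library. The number of undivided-alone regions was 3486. It was 4070 when peaks had to share 50% of the narrower peak, 2873 when peaks within 500 bp were joined, 3153 with a −log10 q of at least 2 in every list, and 3465 or 3484 with the depth limit by background or by shared regions. It fell by construction to 1170 and 252 when the undivided peak needed a −log10 q of at least 5 or 10. As a percent of all regions these sets were 7.08 (overlap), 5.46 (joined), 5.76 (at least 2), 2.09 (at least 5) and 0.450 (at least 10), against 6.23.

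The median −log10 q was 4.35 with a minimum of 2, 4.02 with joined peaks, 7.06 with a minimum of 5 and 12.6 with 10. The median pileup was 12 and 18 fragments and the median fold 5.95 and 7.75 with minima of 5 and 10. Median width was 228 bp by overlap and 232, 269.5 and 294.5 bp with minima of 2, 5 and 10. The percent near a gene end was 25.4 with a 5 kb window, 10.1 by overlap, 7.00 joined, and 7.09 and 4.37 with minima of 5 and 10. The percent inside a gene was 39.9 with the 5 kb window and 47.3 and 45.2 with minima of 5 and 10. The percent between genes was 34.7 with the 5 kb window, 43.6 joined, and 45.6 and 50.4 with minima of 5 and 10.

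Tcrd had 10 or 11 members under the overlap, joining, minimum of 2 and depth settings, 8 with a minimum of 5 and 5 with 10. Tcra had 27 to 29, then 19 and 10. Sox13 had 5 or 6 members, then 3 and 0. These settings for Tcra, Tcrd and Sox13, and the gamma-delta list, were added after seeing the data. Of 144 list results (18 lists under 8 settings) 125 stayed within the counting interval. The receptor response list had 5 of 143 by overlap, whose interval held the share of all regions. The 19 outside came from minima of 5 or 10, except the receptor response list, which had 0 members when genes were assigned within 20 kb. The cause of these moves was not tested beyond the smaller sets. With a median of 9 fragments per region and 1 library per fraction, depth and the lack of replicates limit every single region.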
